A study of Arabidopsis thaliana with 2 samples.

Results

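The KNOX and BELL homeobox genes of Arabidopsis thaliana were examined for LEAFY (LFY) peaks at 10 loci, out of 37899 nuclear genes in the gene table. They are the class I KNOX genes STM (AT1G62360), KNAT1 (AT4G08150), KNAT2 (AT1G70510) and KNAT6 (AT1G23380), the class II KNOX genes KNAT3 (AT5G25220), KNAT4 (AT5G11060) and KNAT5 (AT4G32040), and the BELL genes ATH1 (AT4G32980), PNY (AT5G02030, listed as RPL) and PNF (AT2G27990, listed as BLH8). A peak was counted for a locus when the authors' annotation named the locus as the nearest promoter or in the label of the peak's place (promoter, exon, intron, UTR or 3' end of a gene). By this rule 5 of the 10 loci had a peak, against 1.5% of nuclear genes, and these 5 loci had 8 of the 529 peaks.

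KNOX and BELL proteins belong to the TALE class of homeodomain proteins and act as KNOX-BELL heterodimers. Class I KNOX genes are expressed in shoot meristems, where they keep cells undifferentiated and raise cytokinin while lowering gibberellin. Class II KNOX genes are expressed more widely and promote differentiation, and the BELL proteins ATH1, PNY and PNF are the meristem partners that bind STM and help to carry it into the nucleus. LFY, a transcription factor of floral meristem identity, acts in the same apex as these genes when flowers form.

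Chromatin immunoprecipitation and sequencing (ChIP-seq) was done on inflorescences of ap1 cal1 mutants, which carry mutations in APETALA1 and CAULIFLOWER and form masses of meristems in place of flowers. Both libraries came from plants with 35S:LFY-GR, in which the constitutive 35S promoter drives LFY fused to the glucocorticoid receptor, so the fusion is not limited to the cells that normally make LFY. Plants were grown for 4 weeks at 20 °C and harvested 4 h after treatment with 10 µM dexamethasone in ethanol and Silwet, which lets the fusion enter the nucleus. There was 1 library precipitated with rabbit serum against LFY and 1 input library without antibody, with no untreated library and no replicate, so the spread between libraries is not known and no difference was tested. The score of a peak is the authors' own value from their peak caller, with a lowest value of 50.03, a median of 132.77 and a highest of 2952.29. No expression was measured, so the tissue label could not be checked against marker genes, and the depth behind a peak is unknown.

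The question for these loci was which of them carried LFY peaks, and where. Under the same counting rule 570 of the 37899 nuclear genes had a peak, which is 1.5%, and among protein-coding genes the share was 1.98%. The loci and the gene lists below were chosen with earlier results of these data known, so the shares are given without a test. Of the class I KNOX genes 3 of 4 had a peak, of the class II KNOX genes 1 of 3 and of the BELL genes 1 of 3. By nearest promoter alone the count was 4 of 10, against 1.32% of nuclear and 1.75% of protein-coding genes. The loci without a listed peak were KNAT1, KNAT3, KNAT5, PNY and PNF. A locus without a listed peak had no peak above the authors' threshold assigned to it, which does not show that LFY is absent there.

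KNAT2, a class I gene of the meristem and carpel, carried the highest-scoring peak of the 10 loci, although by score per width the STM peak at its TSS came first. The higher-scoring KNAT2 peak lay on chromosome 1 from 26580595 to 26582088 (TAIR10) with a score of 464.6, rank 75 of 529. It was centred in intron 3 of 4. A second KNAT2 peak lay in the same intron, from 26577870 to 26578905, with a score of 253.1 and rank 149. The first peak was centred 4855 bp and the second 1901 bp downstream of the KNAT2 transcription start site (TSS), so both were in the gene body and neither reached the TSS. The gap between them was 1689 bp. The authors' annotation assigned the higher-scoring peak to AT1G70518, a noncoding RNA gene that follows KNAT2 in the gene order, because its TSS was closer, at 2229 bp.

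STM, the class I gene needed to form and keep the shoot meristem, also had 2 peaks. The stronger lay over its TSS on chromosome 1 from 23061116 to 23062219, centred 55 bp downstream, with a score of 367.4 and rank 99. The weaker was intergenic, from 23066044 to 23067092, centred 4846 bp upstream, with a score of 88.5 and rank 358. STM was thus the one locus of the 10 with a peak across its TSS, and its 2 peaks were 3824 bp apart. The gene table lists the long noncoding RNA gene AT1G08517 as the next locus on the upstream side of STM. The authors' annotation of the distal peak did not name it, and whether their gene set held it is not known.

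KNAT6, the close relative of KNAT2 that marks meristem and organ boundaries, had 1 peak on chromosome 1 from 8297656 to 8299371, with a score of 143.8 and rank 247. It was centred in intron 3 of 4 of KNAT6, the same intron number as both KNAT2 peaks. The nearest promoter was that of the neighbouring gene MENG (AT1G23360), a methyltransferase gene of phylloquinone synthesis, 1590 bp away, so the peak centre was at least that far from the TSS of KNAT6. KNAT1 (also BREVIPEDICELLUS), which shapes the inflorescence stem and pedicels, was the class I gene with no listed peak. The protein-coding genes nearest to KNAT1 that had a peak were 53 and 154 genes away in the gene order. For scale, 543 of 27444 protein-coding genes (1.98%) had a peak, so such distances here and below are not particular to these loci.

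Among the class II genes, KNAT4 had 1 peak on chromosome 5 from 3510182 to 3511916, centred in intron 1 of 5, with a score of 88.0 and rank 360. Its centre was 931 bp downstream of the TSS, and its near edge ended 63 bp short of the TSS. KNAT3 had no listed peak, but AT5G25240, the second protein-coding gene beyond it, had one in its promoter with a score of 93.1 (chromosome 5 from 8746777 to 8747714). For KNAT5 the nearest protein-coding gene with a peak was 9 genes away.

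Among the BELL genes, ATH1, which acts at the base of the shoot and in flowering time, had 2 peaks on chromosome 4. One was centred in exon 3 of 6, from 15915876 to 15917367, 1423 bp downstream of the TSS, with a score of 97.7 and rank 329. The other was intergenic, from 15918516 to 15919577, centred 1002 bp upstream, with a score of 74.9 and rank 404. The peaks lay on either side of the TSS with a gap of 1148 bp, and neither reached it. PNY and PNF, the paralogous partners of STM in the inflorescence meristem, had no listed peak, and the nearest protein-coding genes with one were 32 genes from PNY and 39 from PNF.

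**Figure D1:**
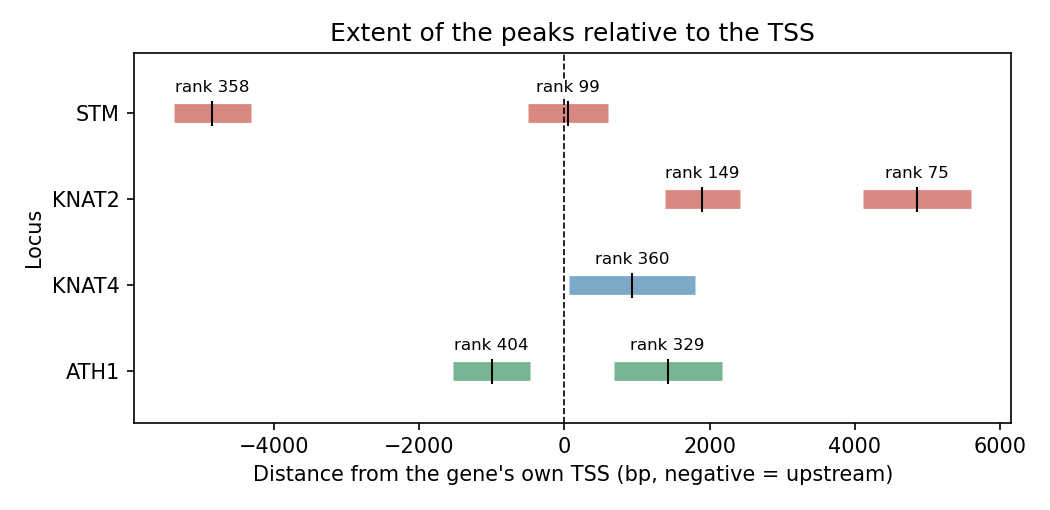
Extent of the peaks at STM, KNAT2, KNAT4 and ATH1 in bp from the TSS of the gene itself (dashed line, negative is upstream); each bar is 1 peak, the tick its centre, the label its rank by score, and the colour the class (red class I KNOX, blue class II KNOX, green BELL). One STM bar crosses the TSS, both KNAT2 bars lie downstream of it, and the ATH1 bars lie on either side; KNAT6 is left out because its peak was measured from the TSS of MENG.

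The classes were set side by side by score order within this list, without a test. The 5 class I peaks had a median score of 253.1 and a median rank of 149, and 4 of them were among the 265 higher-scoring peaks. In those 265 peaks 3 of the 10 loci had a peak, all class I, against 0.755% of nuclear and 0.987% of protein-coding genes. The class II peak and the 2 BELL peaks ranked between 329 and 404, and 0 of these 3 were among them. The weaker STM peak, at rank 358, was the class I peak that fell within the range of the other classes. Over all 10 loci the 8 peaks had a median rank of 288, with 4 among the 265 higher-scoring peaks and 4 below them, so as a whole they did not sit high in the list. With 1 peak in class II and both BELL peaks at 1 gene, these orders describe single loci.

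**Figure D2:**
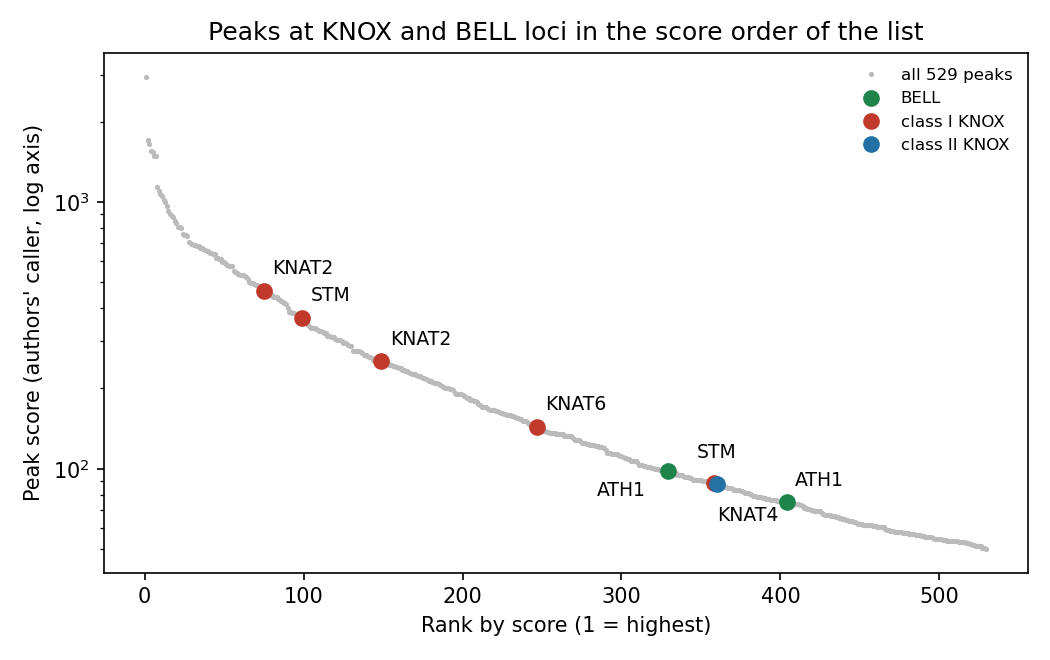
Score of every peak (grey, log axis) against its rank, with the 8 peaks at KNOX and BELL loci coloured by class. The upper 4 coloured points, at ranks 75, 99, 149 and 247, are KNAT2, STM, KNAT2 and KNAT6, and the class II and BELL points lie between ranks 329 and 404.

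Most of these peaks lay inside genes. The counting rule also admits a peak by a label that names the gene it lies in, so these shares depend in part on the rule. The stronger KNAT2 peak and the KNAT6 peak were counted by their intron label alone, and by nearest promoter alone 6 peaks were left. Of these 6, the weaker KNAT2 peak and the KNAT4 peak lay in introns and 1 ATH1 peak in an exon. Introns held 4 of the 8 peaks, against 7.18% of all peaks in the list, and an exon held 1, against 12.5%. In all, 5 of the 8 were annotated inside a transcribed unit, against 22.5% of all peaks. The promoter class held 1 of the 8, against 40.5% of the list, and intergenic sequence held 2, against 22.9%. The ATH1 peak centred 1002 bp upstream was labelled intergenic, whereas a FIL peak centred 995 bp upstream was labelled promoter. A single peak of the 8 reached the nearest TSS, against 45.6% of the list. The lengths of the genes and introns were not measured, and their part in these shares was not tested.

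Among the 38 intron peaks of the list, the stronger KNAT2 peak ranked 4, the weaker 12, the KNAT6 peak 16 and the KNAT4 peak 23. An intron 3 held 21.1% of the 38 peaks, and 4 peaks (10.5%) were in intron 3 of a transcript with 4 introns. They were both KNAT2 peaks, the KNAT6 peak and a peak at BLH2, and all 3 genes belong to the TALE class. This grouping by intron was made after the annotations were seen. Of the 38 intron peaks, only 6 (15.8%) lay in any transcript with 4 introns, and the intron number depends on the transcript that the annotation names. At KNAT2 the centres of the 2 peaks were 2954 bp apart, so that intron is at least that long.

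Several of these loci had more than 1 peak. STM, KNAT2 and ATH1 had 2 peaks each, which is 3 of the 5 loci with a peak, whereas 22 of all 584 loci with a peak (3.77%) had 2 and none had more. By nearest promoter alone STM and ATH1 kept 2 peaks each, while KNAT2 kept only its weaker peak. Over these 22 loci the gap between the peaks ranged from 55 to 4612 bp with a median of 889 bp. The gaps at ATH1, KNAT2 and STM were all longer than the median, and 20 of the 22 loci had a shorter gap than STM. The 8 peaks were 1036 to 1735 bp wide with a median of 1298 bp, and the lower and upper quartiles of all peak widths were 1030 and 1645 bp.

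The other TALE genes were looked at as the nearest relatives of these loci. Of 12 further genes, BLH2 and BLH4 had a peak, so 7 of the 22 TALE genes had one in all, and 3 of the 13 BELL genes, against 1.5% of nuclear and 1.98% of protein-coding genes. BLH2 (AT4G36870, also SAWTOOTH1) and BLH4 (AT2G23760, also SAWTOOTH2) encode paralogous BELL proteins that limit KNOX expression in leaf margins. The BLH2 peak lay on chromosome 4 from 17370980 to 17372808, centred in intron 3 of 4, with a score of 80.2 and rank 381. The BLH4 peak lay on chromosome 2 from 10106353 to 10107364 at the 3' end of the gene, with a score of 132.2 and rank 268, and its nearest promoter was that of the neighbour AT2G23755. Both scored below the list median of 132.77. No peak was listed for KNAT7, KNATM, BEL1, BLH1, BLH3, BLH5, BLH6, BLH7, BLH10 or BLH11.

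**Figure D3:**
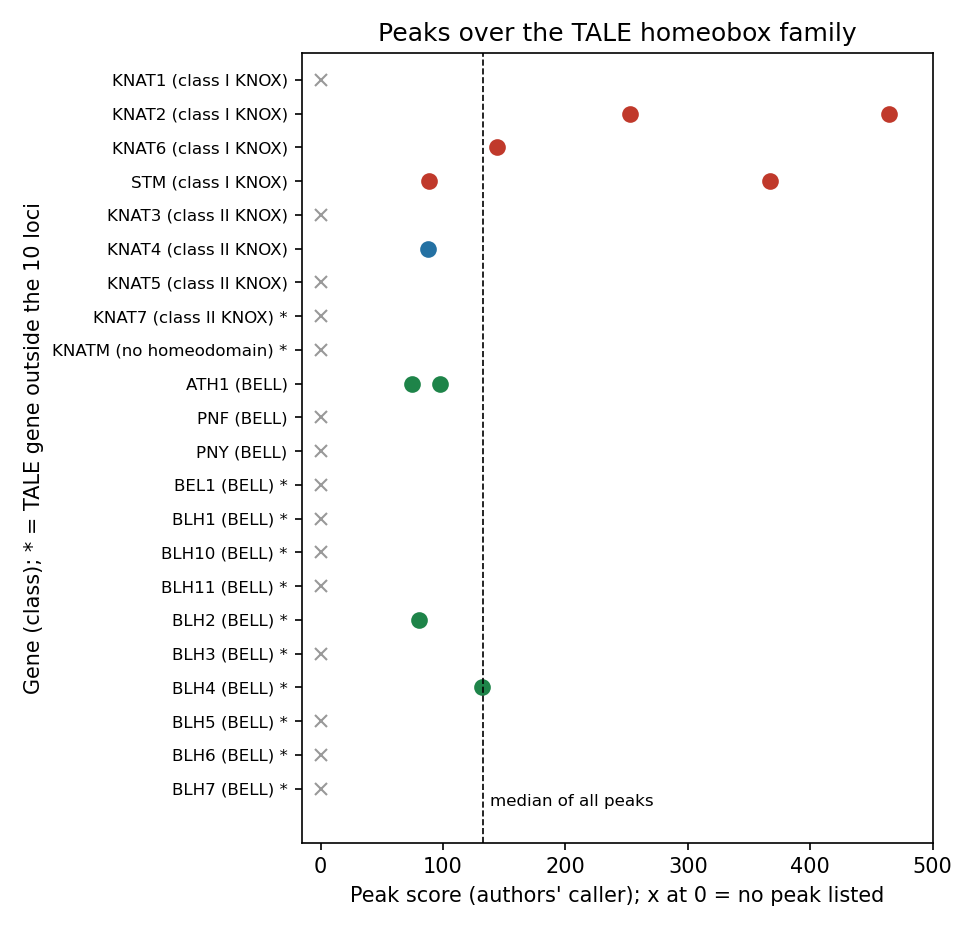
Score of each peak (x axis, authors' caller) for the 22 TALE genes by class; a cross at 0 marks a gene with no listed peak, an asterisk a gene outside the 10 loci, and the dashed line the median score of all peaks. Points to the right of the line belong to KNAT2, KNAT6 and STM.

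Genes that act on KNOX and BELL genes, or after them, were set beside the loci. Of 12 regulators 4 had a peak under the same rule, against 1.5% of nuclear and 1.98% of protein-coding genes. Among the 265 higher-scoring peaks 2 of the 12 had one, against 0.755% of nuclear and 0.987% of protein-coding genes. Both lists were chosen with earlier results of these data known, so their shares describe these genes only. BOP1 and BOP2, boundary genes whose products activate ATH1 and KNAT6, held ranks 40 and 486 (BOP1) and 124 (BOP2). CUC3, a boundary NAC gene, held ranks 272 and 385, and FIL, a YABBY gene that restricts KNOX expression in lateral organs, held rank 502. AS1 and AS2, which repress KNAT1, KNAT2 and KNAT6 in leaves, had no listed peak, nor did CUC1, CUC2, JAG, YAB3 or the Polycomb genes CLF and SWN. Of 8 genes of KNOX output or partner proteins 3 had a peak, against the same 1.5% of nuclear genes. They were the cytokinin synthesis gene IPT5 (rank 70), the gibberellin synthesis gene GA20OX1 (rank 158), which class I KNOX proteins repress, and the gibberellin catabolism gene GA2OX4 (rank 195). IPT7, GA2OX2 and the OVATE family genes OFP1, OFP4 and OFP5, whose products bind TALE proteins, had none. All 3 genes with a peak kept it among the 265 higher-scoring peaks. By the annotation alone 1 of the 8 had a peak, against 1.04% of nuclear and 1.37% of protein-coding genes. Within 1000 bp of a TSS 0 did, against 0.865% and 1.13%.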

How the data were processed

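Peaks are from 1 deposited list of 529. The peaks were annotated with HOMER's annotatePeaks.pl, per the file headers. The header names an LFY-GR peak set against a contrast, and it does not identify the contrast as the input. Nor does it name the LFY library described here, and the list was taken as that library's because no other precipitated library was available. The build was TAIR10 and the tools FastQC, HOMER and MACS 1.4, per the submitters' processing notes. Not given in the sources used here are the aligner, peak threshold and treatment of duplicates. The deposited score has no stated scale and served only to rank peaks (1 is highest). The serum also recognises LFY without GR.

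Positions are those of the deposited file. A peak reached a TSS when the TSS lay between its start and end. At STM and ATH1 the 2 distances place the same TSS to within 1 bp on the minus strand; at KNAT2 the shared intron fixes the plus strand. Gene names and order came from a RefSeq table (TAIR10.1) that held all 10 loci, and its coordinates served only to set that order. Members and gene lists were chosen with earlier results of these data known. Named genes are all members, genes their peaks were assigned to, and list genes with a peak; neighbours and list genes without a peak were named after their values were seen. The planned motif searches were not run, since no sequence was used here. The assignment step was tested on simulated data. The tools were pandas 2.3.3, NumPy 2.4.6, SciPy 1.17.1 and matplotlib 3.10.9 under Python 3.11.15.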

Additional observations from a re-analysis of the deposited data

How the results depend on the processing

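Counts moved with the peaks allowed. The main counts were 5 loci and 8 peaks. The 265 higher-scoring peaks left 3 loci with 4 peaks (0.755% of nuclear genes had a peak). The 133 highest-scoring peaks left 2 loci with 2 peaks (0.377%), and peaks within 1000 bp of a TSS 2 loci with 2 peaks (0.865%). Of protein-coding genes, 0.987%, 0.496% and 1.13% had a peak under these limits, in that order. BELL loci with a peak fell from 1 to 0 under each of these limits and class II loci from 1 to 0 under both score limits, while class I loci fell to 1 within 1000 bp. The ATH1 peak upstream of the TSS missed that limit by 2 bp. Other TALE genes with a peak numbered 1 by nearest promoter alone and 0 among the 265 higher-scoring peaks. By nearest promoter alone KNAT6 had no peak and 4 loci with 6 peaks were left. A limit of 3000 bp and the annotation alone left the counts of loci and peaks at the 10 loci within 1.5 times main values. Distance limits were measured to the nearest TSS of any gene. The stronger KNAT2 peak thus passed the 3000 bp limit at 2229 bp from AT1G70518, though 4855 bp from the TSS of KNAT2. Merging across gaps under 500 or 1000 bp was run for the number of peaks alone, which stayed at 8.

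Rank as a percentage of the list, where the 1st peak is lowest, also moved. Within the annotation class it was 10.5% for the stronger KNAT2 peak (14.2% in the whole list), 42.1% for KNAT6 (46.7%), 56.1% and 82.6% for ATH1 (62.2% and 76.4%), 75.2% for the distal STM peak (67.7%) and 60.5% for KNAT4 (68.1%). By score divided by width it was 14.0% and 57.8% for STM (18.7% and 67.7%), 15.7% and 22.1% for KNAT2 (14.2% and 28.2%), 58.4% for KNAT6, 71.3% and 66.7% for ATH1, and 86.2% for KNAT4. On that scale the STM peak at the TSS (rank 74) passed the stronger KNAT2 peak (rank 83), KNAT6 fell below the middle of the list, and the ATH1 peaks changed order. No paired analysis was possible because each group had 1 library, so none could be left out either. Depth and input signal at these loci are unknown, and a peak below the authors' threshold cannot be seen.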
